A study of Mus musculus with 4 samples.

Results

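The genes described here are 10 subunits of protein phosphatase 2A (PP2A): the catalytic subunits Ppp2ca and Ppp2cb, the scaffold subunits Ppp2r1a and Ppp2r1b, the B55 regulatory subunits Ppp2r2a, Ppp2r2b, Ppp2r2c and Ppp2r2d, and the B56 regulatory subunits Ppp2r5c and Ppp2r5e. They are 10 of the 27178 genes kept from the deposited table and were picked by symbol. The family was chosen because Ppp2r2b was high at the wavefront, so the values of Ppp2r2b in this comparison are given as a description and are not tested. The rule names no values of the other 9 genes. Bulk RNA-seq libraries were made from Wnt1-tdT mouse guts at 11.5 dpc, from cells that flow cytometry sorted for the reporter, whose name ties it to Wnt1, a gene active in the early neural crest. All 4 libraries share this reporter line, and no other allele or treatment is named; other cells that switch the reporter on would be sorted too. There were 2 wavefront libraries, from cells at the leading edge of crest migration along the gut, and 2 trailing libraries, from cells 1 to 1.5 mm behind that edge. Whether the replicates are separate embryos, litters or pools is not given, so each p-value below covers the spread among 4 libraries, and part of that spread may be technical.

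PP2A is a major serine/threonine phosphatase. Its core is a catalytic subunit bound to a scaffold subunit, and a single regulatory subunit joins the core and steers it to particular substrates and places in the cell. B55 subunits are known for substrates in mitotic exit and in the cytoskeleton, B56 subunits for kinetochore and Wnt pathway partners. Ppp2r2a is expressed in most tissues, while Ppp2r2b and Ppp2r2c are known mainly from brain and neurons.

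The catalytic subunits are close paralogues that encode nearly the same protein, so it matters for the values below whether their reads can be told apart. Their coding sequences in GENCODE M21 (GRCm38) are 927 bases each and 81.7% identical, and the longest run of bases shared by the transcripts compared (1 per gene, untranslated parts included) is 25 bases. A read longer than that from these transcripts cannot match both without a mismatch. In the other pairs of the same class the longest shared run was 17 to 26 bases, the longest being that of Ppp2r2b and Ppp2r2c, and coding identity was 56.4 to 76.5%.

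Depth was low and uneven. Trailing replicates 1 and 2 held 511074 and 447224 reads in genes counted once, and wavefront replicates 1 and 2 held 535636 and 258457. Ribosomal RNA took 15.6 to 26.1% of the reads of 3 libraries and 55.5% of those of wavefront replicate 2, which left that library 114972 other reads. Levels below are scaled CPM, the reads of a gene as CPM (its counts set to a common library total) after TMM scaling, which corrects for a few genes taking a large share of a library, and 1 read is worth 1.84 to 3.84 deposited CPM. Crest identity was checked on 9 markers, Ret, Sox10 and Ednrb among them: all 9 had reads in every library. They summed to 2402 to 3258 scaled CPM in trailing and 2050 to 3998 in wavefront libraries. Ret took a large part of these sums, with 1550 and 1083 in trailing and 2248 and 863 in wavefront libraries. Sox10 was at 39.5 and 51.7 in trailing and 22.3 in each wavefront library, and Foxd3 had 1 to 6 reads in a library. Of the 8 markers tested by counts (edgeR, described further on), 0 rose and 0 fell.

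The catalytic subunits carry the phosphatase activity, and for both of them the wavefront and trailing libraries overlapped in scaled CPM. Ppp2ca (chromosome 11, 52098681 to 52127778, GRCm38) had 32 and 35 reads in the trailing pair of libraries and 30 and 14 in the wavefront pair. These are 57.4 and 69.6 scaled CPM against 47.7 and 78.0, so wavefront replicate 1 was the lowest and wavefront replicate 2 the highest of the 4 libraries. The log2 fold change, wavefront over trailing, was -0.16 ± 0.35 (SE; 95% interval -0.87 to 0.55; edgeR's quasi-likelihood test with Benjamini-Hochberg adjustment over all genes tested, adjusted p = 0.939), and it was 0.30 without wavefront replicate 1. In the unscaled CPM both wavefront values of Ppp2ca lay below both trailing ones, at 55.2 and 53.8 against 61.9 and 77.4. Ppp2cb (chromosome 8, 33599625 to 33619441) had few reads, 7 and 12 in trailing and 10 and 1 in wavefront libraries, and did not pass the filter on low counts. Its scaled ratio, wavefront over trailing, was 0.760 (95% exact binomial counting interval 0.327 to 1.68), and differences inside that interval were not detectable at this depth. In bulk libraries such as these, fewer cells of a type and less RNA per cell cannot be told apart.

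Ppp2ca gave most of the catalytic reads in every library. Its share was 82.1% (95% exact Clopper-Pearson interval 66.5 to 92.5%) and 74.5% (59.7 to 86.1%) in trailing replicates 1 and 2, and 75.0% (58.8 to 87.3%) and 93.3% (68.1 to 99.8%) in wavefront replicates 1 and 2. The groups overlapped (exact permutation test over libraries, two-sided p = 0.667; 2 against 2 cannot go below 0.333). No molecular identifiers are named for these reads, so intervals of this kind cover counting error only. The annotated exons of Ppp2ca span 7490 bases against 1469 for Ppp2cb, and per kilobase of exon the share of Ppp2ca was 36.4 to 47.3% in trailing libraries and 37.0 and 73.3% at the wavefront. Per length Ppp2ca was above Ppp2cb only in wavefront replicate 2, which held 14 Ppp2ca reads and 1 Ppp2cb read. No interval was computed for the share per length, so a change in the order of the paralogues was not shown. Of the Ppp2ca exons, 2985 bases also lie in the exons of 9430098F02Rik on the other strand, a gene not analysed here, and the library kit does not keep the strand.

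The scaffold gene Ppp2r1b was higher in both wavefront libraries than in both trailing libraries, but the difference did not pass the test across all genes. Ppp2r1a (chromosome 17, 20945311 to 20965916), the main scaffold isoform, which holds the catalytic and regulatory subunits together, had 228 and 158 trailing reads and 295 and 55 wavefront reads. In scaled CPM it was at 409 and 314 in trailing and 469 and 306 in wavefront libraries, with the wavefront libraries on either side of the trailing ones. Its log2 fold change was 0.13 ± 0.33 (95% interval -0.53 to 0.78; edgeR adjusted p = 0.95), and the sign was negative with scaling by library size alone (-0.06) and in limma (-0.21). Ppp2r1b (chromosome 9, 50845301 to 50894229), the second scaffold isoform, had 72 and 47 trailing reads and 115 and 29 wavefront reads, which are 129 and 93.4 scaled CPM against 183 and 162. The 2 groups of libraries did not overlap, as for 39.3% of all genes tested by counts, and 18.6% were higher at the wavefront without overlap. The log2 fold change of Ppp2r1b was 0.64 ± 0.31 (95% interval 0.03 to 1.26; edgeR unadjusted p = 0.041, adjusted p = 0.469). In unscaled CPM its groups overlapped, at 139 and 104 against 212 and 111. The exons of Ppp2r1b overlap 1429 exon bases of Sik2 on the other strand, and Sik2 itself had 0 to 6 reads in a library.

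Within the scaffold reads the share of Ppp2r1a, which does not depend on scaling between libraries, was lower in both wavefront libraries, a difference that did not pass the exact permutation test. It was 76.0% (95% Clopper-Pearson interval 70.8 to 80.7%) and 77.1% (70.7 to 82.6%) in the trailing libraries, and 72.0% (67.3 to 76.2%) and 65.5% (54.3 to 75.5%) in wavefront replicates 1 and 2. The difference of the means was -7.82 percentage points, with no overlap between the groups (exact permutation, two-sided p = 0.333, the smallest that this test allows with 2 against 2), and it was -4.59 points without wavefront replicate 2. The counting intervals of all 4 libraries overlap. Per kilobase of exon Ppp2r1a was above Ppp2r1b in all 4 libraries, with 78.2 to 86.4% of the scaffold signal.

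**Figure D1:**
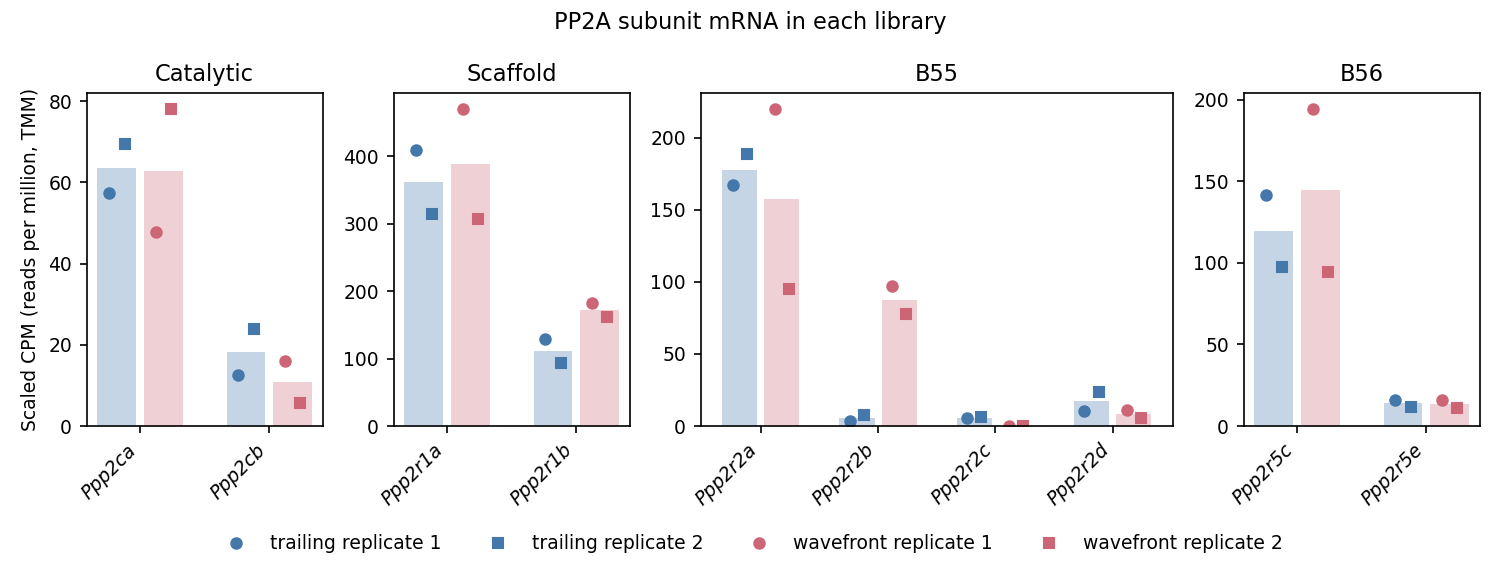
Scaled CPM (after TMM scaling, linear axes that differ between panels) of the 10 PP2A subunit genes, with 1 point per library, circles for replicate 1 and squares for replicate 2, and bars at the mean of 2 libraries. Ppp2r2b was at 3.59 and 7.95 in the trailing pair and at 97.1 and 78.0 in the wavefront pair, while Ppp2r2a spread from 94.7 to 220 within the wavefront group.

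Among the B55 regulatory subunits, Ppp2r2b was low in trailing cells and high at the wavefront, Ppp2r2a gave the most reads in every library, and Ppp2r2c and Ppp2r2d had few reads. Ppp2r2b (chromosome 18, 42637432 to 43059471), the beta isoform, had 2 and 4 reads in the trailing pair and 61 and 14 in the wavefront pair. In scaled CPM these are 3.59 and 7.95 against 97.1 and 78.0, with means of 5.77 ± 3.08 and 87.5 ± 13.5 (SD, n = 2 each). Both wavefront libraries lay far above both trailing libraries, and the lower trailing library held under the 3 reads used here as the floor of detection. The fitted log2 fold change of Ppp2r2b was 3.94 ± 0.50 (SE), and 3.49 to 4.55 with any 1 library left out. In the authors' deposited table it stood at 2.11 ± 0.46. The family was chosen because of the Ppp2r2b pattern in this comparison, so neither fold is tested here. How the authors' fold was estimated is not stated in the sources here. The exons of Ppp2r2b overlap 169 exon bases of the antisense gene 4933407I08Rik, not analysed here.

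Of the other 3 B55 genes edgeR tested only Ppp2r2a, which was not called. Ppp2r2c and Ppp2r2d were under its filter on low counts. Limma tested all 3 and called 0 of them, but it called 0 of all 12519 genes it tested. Ppp2r2a (chromosome 14, 67014056 to 67072444), the alpha isoform, had 93 and 95 trailing reads and 138 and 17 wavefront reads, which are 167 and 189 scaled CPM against 220 and 94.7. The wavefront libraries were the highest and the lowest of the 4. Its log2 fold change was -0.06 ± 0.32 (95% interval -0.70 to 0.57; edgeR adjusted p = 0.975), and 0.36 without wavefront replicate 2. Ppp2r2d (chromosome 7, 138846079 to 138883057), the delta isoform, had 6 and 12 reads against 7 and 1. Its scaled ratio was 0.583 (95% counting interval 0.220 to 1.41). An overlap of 195 exon bases with Mapk1ip1 on the other strand, which had 0 to 5 reads in a library, applies to Ppp2r2d. Ppp2r2c (chromosome 5, 36868513 to 36955078), the gamma isoform, had 3 reads in each trailing library and 0 in each wavefront library. A count of 0 allows up to 5.52 CPM in wavefront replicate 1 and 11.5 CPM in wavefront replicate 2, and the trailing values were 5.80 and 6.64 CPM. The counting interval of the scaled ratio of Ppp2r2c, wavefront over trailing, ran from 0 to 1.11 (95%, exact binomial), so it included no difference. In limma, the test on log2(CPM + 1), Ppp2r2c had an unadjusted p of 0.0103 and an adjusted p of 0.68.

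The make-up of the B55 reads is given as a description, since it holds Ppp2r2b. Ppp2r2b gave 2 of 104 B55 reads (1.92%, 95% Clopper-Pearson interval 0.234 to 6.77%) in trailing replicate 1 and 4 of 114 (3.51%, 0.964 to 8.74%) in trailing replicate 2. At the wavefront it gave 61 of 206 (29.6%, 23.5 to 36.4%) in replicate 1 and 14 of 32 (43.8%, 26.4 to 62.3%) in replicate 2. Per kilobase of exon the shares of Ppp2r2b were 2.58 and 4.70% in the trailing and 36.3 and 51.3% in the wavefront libraries, where those of Ppp2r2a were 60.9 and 46.2%, so per length Ppp2r2b was above Ppp2r2a in wavefront replicate 2. Ppp2r2a gave 89.4 and 83.3% of the B55 reads in the trailing pair and 67.0 and 53.1% in the wavefront pair. Among the reads of Ppp2r2a and Ppp2r2d alone, which leaves Ppp2r2b out, the share of Ppp2r2a was 93.9 and 88.8% in trailing and 95.2 and 94.4% in wavefront libraries (exact permutation, two-sided p = 0.333, the smallest possible). The groups did not overlap in that share, while the counting intervals of the libraries did. All B55 genes together were at 207 ± 28.2 scaled CPM in trailing and 253 ± 106 at the wavefront (SD, n = 2 each). Without Ppp2r2b they were at 201 ± 25.2 and 165 ± 92.2, with the groups overlapping both ways.

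**Figure D2:**
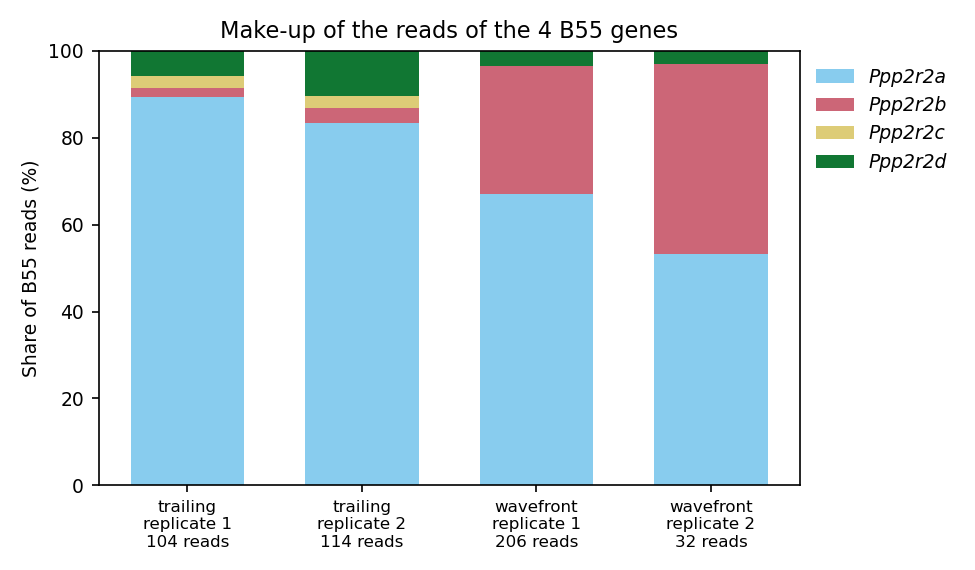
Share of the reads of the 4 B55 genes (%, stacked to 100) that each gene gave in each library, with the number of B55 reads under each bar. Ppp2r2b gave 1.92 and 3.51% in the trailing pair and 29.6 and 43.8% in the wavefront pair, and wavefront replicate 2 rests on 32 reads.

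Of the 2 B56 members, Ppp2r5c had more reads than Ppp2r5e in every library, and the groups overlapped for both; other B56 isoforms are among the related genes further on. Ppp2r5c (chromosome 12, 110447120 to 110583062), the gamma isoform of the B56 class, had 79 and 49 trailing reads and 122 and 17 wavefront reads. In scaled CPM it was at 142 and 97.4 against 194 and 94.7, so its wavefront libraries were again the highest and the lowest. Its log2 fold change was 0.38 ± 0.32 (95% interval -0.26 to 1.02; edgeR adjusted p = 0.794), with a negative sign in limma (-0.08) and without wavefront replicate 1 (-0.34). Ppp2r5e (chromosome 12, 75450881 to 75596245), the epsilon isoform, had 9 and 6 reads against 10 and 2, a scaled ratio of 1.05 (95% counting interval 0.449 to 2.40). Among the reads of Ppp2r5c and Ppp2r5e alone, which leaves out the other B56 isoforms, Ppp2r5c gave 89.1 to 89.8% in trailing and 89.5 to 92.4% in wavefront libraries (exact permutation, two-sided p = 0.667).

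Levels were also set side by side between genes per kilobase of exon. The length used was that of all annotated exons of a gene together. Which transcripts these cells use was not measured, so the order of genes below is approximate. In trailing cells Ppp2r1a was the highest, at 106 ± 19.7 scaled CPM per kilobase (SD, n = 2), and both of its libraries lay above those of all other members. Ppp2r2a followed at 33.1 ± 2.88, also apart from the next genes. Ppp2r1b at 17.3 ± 3.92, Ppp2r5c at 14.4 ± 3.79 and Ppp2cb at 12.4 ± 5.43 did not differ beyond their spread, and Ppp2ca was at 8.48 ± 1.15. Ppp2r2d, Ppp2r5e, Ppp2r2b and Ppp2r2c were at 2.93, 2.63, 1.45 and 1.27, each from 18 reads or fewer. At the wavefront Ppp2r1a was again the highest, at 114 ± 33.8. Ppp2r2a at 29.2 ± 16.4, Ppp2r1b at 26.7 ± 2.35, Ppp2r2b at 22.0 ± 3.38 and Ppp2r5c at 17.4 ± 8.48 followed. Of these neighbours Ppp2r1b, at 28.4 and 25.1, lay just above Ppp2r2b, at 24.4 and 19.6, and the libraries of the other neighbouring pairs overlapped. Ppp2ca was at 8.39 ± 2.86 and Ppp2cb at 7.31 ± 4.98. By the means Ppp2r2b stood at the ninth place of 10 in trailing cells and at the fourth at the wavefront.

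In the count test, edgeR on whole reads recovered from the deposited CPM, 6 of the 10 members passed the filter on low counts, and 0 of the 5 other than Ppp2r2b were called at an adjusted p under 0.05. Of all 5759 genes tested, 1.74% were called, and 0.399% were called higher at the wavefront, so 0 of 5 is near the background. The 100 calls were 23 higher and 77 lower, and with library size alone 9 higher and 65 lower. Of those 5, 1 had an unadjusted p under 0.05 in edgeR, Ppp2r1b, against 573 of all 5759 genes tested. Ppp2r1b was also the 1 of the 5 whose groups do not overlap, against the 39.3% given above. The median log2 fold change of the 5 was 0.13 and that of all genes tested 0.01. The limma fit on log2(CPM + 1) held all 10 members, and the Ppp2r2b row is not read as a test. Limma called 0 of the 9 others, with 0% of 12519 genes called in all and 858 at an unadjusted p under 0.05. The smallest adjusted p among the 9 was 0.68. DESeq2 on the recovered reads called 0 of 5, and 0 of 9 passed when p-values from the authors' deposited table were adjusted over all genes. Summed over the 9 genes, the scaled CPM were 949 and 829 in trailing and 1157 and 758 in wavefront libraries, so the wavefront libraries lay on either side of the trailing ones.

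**Figure D3:**
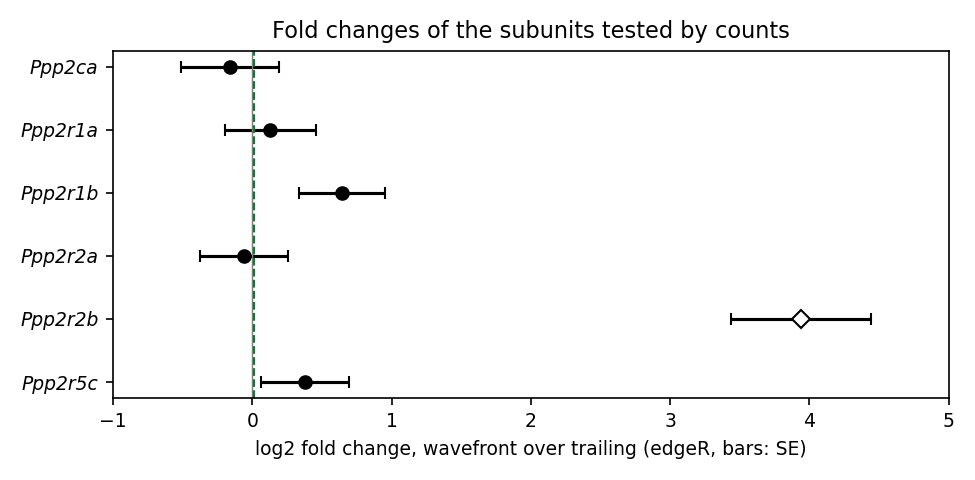
Log2 fold change, wavefront over trailing, of the 6 PP2A subunits that passed the filter of the count test (edgeR, bars are standard errors). Filled circles are the 5 genes that were tested, from -0.16 to 0.64, the open diamond is Ppp2r2b at 3.94, shown as a description, the grey line marks 0 and the dashed line the median of all genes tested, 0.01.

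Other genes of the PP2A system were taken from 3 lists chosen by function. Of 9 other regulatory subunits (B56 isoforms, the PR72 class and the striatins), all 9 had reads and 6 were tested by counts, of which 0 rose and 0 fell. Their log2 fold changes ran from -1.03 to 0.41, with a median of -0.27 and a smallest edgeR adjusted p of 0.69. Ppp2r5b, the beta isoform of the B56 class, was the lowest, with 11 and 10 trailing reads against 8 and 0 (-1.03 ± 0.68). Ppp2r5d, the delta isoform, had 78.9 and 61.6 scaled CPM in trailing and 63.6 and 61.3 in wavefront libraries, a log2 fold change of -0.16 ± 0.34. Strn, the scaffold-like regulatory subunit striatin, was under the filter, with 2 and 4 trailing reads against 11 and 3.

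Of 17 measured genes for assembly, methylation and inhibition of PP2A, 13 were tested by counts, of which 0 rose and 0 fell (median 0.07, range -0.35 to 0.97, smallest edgeR adjusted p 0.37). Of these 13, 1 had an unadjusted p under 0.05 in edgeR, against 573 of all 5759 genes tested. That gene was Sgo1, the shugoshin that brings PP2A to centromeres, with 32.3 and 23.8 scaled CPM in trailing and 60.5 and 44.6 in wavefront libraries (log2 fold change 0.97 ± 0.41, edgeR adjusted p = 0.37). Set, an inhibitor of PP2A, had 104 and 107 trailing reads against 321 and 14, so its high value came from wavefront replicate 1 alone (0.68 ± 0.38, edgeR adjusted p = 0.573). The methylesterase Ppme1 and the methyltransferase Lcmt1, which act on the catalytic subunit's tail, were at 0.13 ± 0.35 and -0.35 ± 0.36. Ensa and Arpp19, inhibitors of the B55 form in mitosis, were at -0.17 ± 0.31 and -0.10 ± 0.31. Of 9 catalytic subunits of related phosphatases (PP1, PP2B, PP4, PP5 and PP6), 5 were tested by counts and 0 were called, with log2 fold changes of 0.05 to 0.65. Ppp1cb, a PP1 catalytic subunit, was the highest, with 91.5 and 79.5 scaled CPM against 102 and 189 (0.65 ± 0.33, edgeR adjusted p = 0.519). In limma 0 genes of the 3 lists were called.

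The 5 genes whose pattern over the 4 libraries was nearest to that of Ppp2r2b, by Euclidean distance in log2(scaled CPM + 1) after subtracting each gene's mean, were Cdh11, Hs3st3b1, Tnc, Gprc5c and Slc9a8. Their distances were 0.665, 1.16, 1.20, 1.46 and 1.49, against a median of 3.90 over the 5758 genes compared. Cdh11, a cadherin of mesenchymal cells, had 3 and 4 trailing reads against 57 and 23, and 90.7 and 128 scaled CPM at the wavefront. Tnc, which encodes the extracellular matrix protein tenascin, had 3 and 6 against 31 and 13, and Hs3st3b1, a heparan sulfate sulfotransferase, had 1 and 5 against 29 and 6. Gprc5c, an orphan receptor, had 6 and 5 against 39 and 13, and Slc9a8, a sodium/proton exchanger, 1 and 5 against 18 and 12. Likeness over 4 points of which 2 are high picks genes of the same contrast, and it is given as a description.

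Markers of other cell types also differed between the libraries in which Ppp2r2b was high and low. Of 13 enteric neuron markers 12 were tested by counts, of which 10 fell and 0 rose, while limma called 0; Nefl, a neurofilament, fell by 3.65 and Stmn2, a microtubule regulator of neurons, fell by 3.30 on the log2 scale in edgeR. The list summed to 3140 and 3386 scaled CPM in trailing libraries and 1154 and 936 at the wavefront. Ppp2r2b was high in the libraries with the lower neuron sums. Of 10 gut mesenchyme markers 3 were tested, of which Des and Col3a1 rose in edgeR. The sum was 158 and 157 in trailing and 361 and 858 in wavefront replicates 1 and 2, with Barx1 and Twist1 at 0 reads in all libraries. In wavefront replicate 1 most reads of the list were of Col3a1 (132) and Des (73). Col1a1, Pdgfra, Pdgfrb and Acta2 had 8 to 10 reads each in wavefront replicate 2, and 0 to 2 in wavefront replicate 1 and in the trailing libraries. Of 7 erythroid markers 0 were tested, and the list had 2, 0, 1 and 110 reads in trailing replicates 1 and 2 and wavefront replicates 1 and 2. The 7 gut epithelium markers had 3, 3, 12 and 10 reads in the same order, or 5.38, 5.96, 19.1 and 55.7 scaled CPM. The 5 endothelial markers had 9, 15, 17 and 8 reads, or 16.1, 29.8, 27.0 and 44.6 scaled CPM. Wavefront replicate 2 was thus the highest of the 4 libraries in both scaled sums. The 5 leukocyte markers had 2, 5, 2 and 1 reads, or 3.59, 9.94, 3.18 and 5.57 scaled CPM, with Ptprc, Fcer1g and Tyrobp at 0 in all. The 6 glial markers summed to 133 and 135 scaled CPM in trailing and 43.0 and 55.7 at the wavefront, with S100b and Gfap among those at 0 in all. The part of these cell types in the Ppp2r2b values was not tested.

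**Figure D4:**
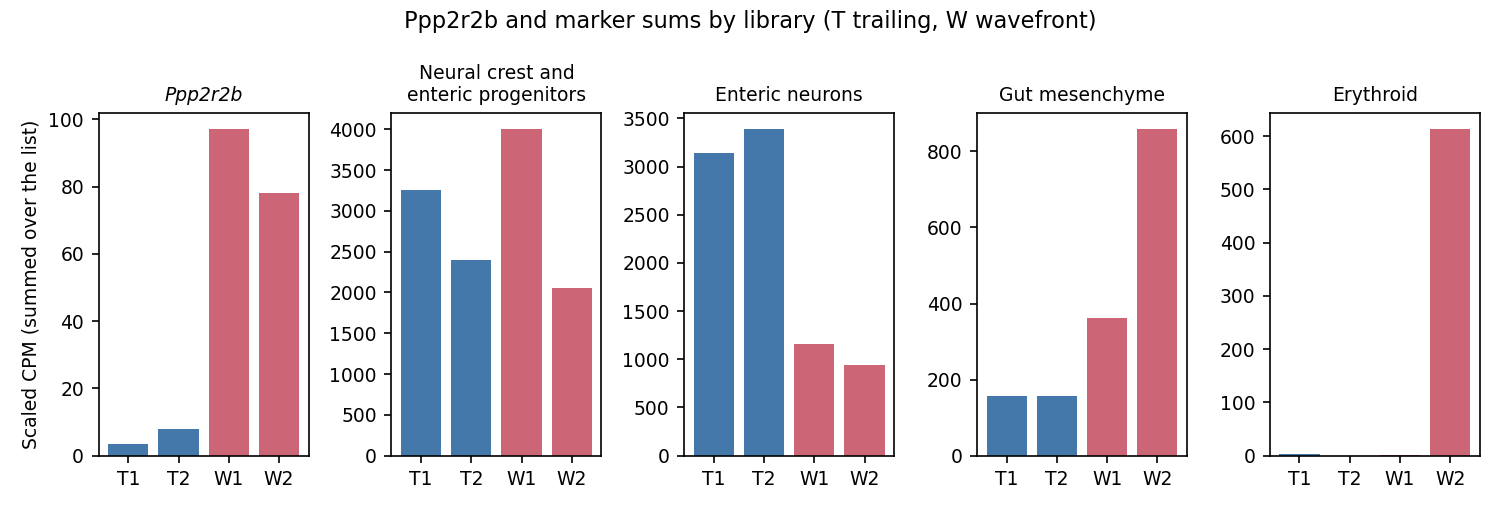
Scaled CPM of Ppp2r2b and summed scaled CPM of 4 marker lists in each library (linear axes from 0 that differ between panels; T1 and T2 trailing, W1 and W2 wavefront replicates 1 and 2). Ppp2r2b was high in both wavefront libraries, the neuron sum was lower in both, and the erythroid reads were nearly all in wavefront replicate 2.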

How the data were processed

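One table of 27606 rows was used, with 428 repeated rows left out and 958 genes that carry a gene number but no symbol kept. The values deposited for each library are CPM, per the file headers; every value (100%, within 0.01 reads) was a whole multiple of 1 read, and reads were recovered. The deposited BaseMean is a signal (mean of scaled reads), the deposited log2 fold change has a standard error, the deposited Wald statistic is a score, and the deposited p-value is not adjusted. The submitters' processing notes name STAR 2.5.2b, featureCounts, DESeq2, FastQC 0.11.9, bcl2fastq 2.17 and the build GRCm38. For strand, multiple hits, overlaps and the annotation release, settings were not given in the sources used here. Per the labels' protocols cells were dissociated with collagenase and dispase, and libraries were made with Nextera XT from Trizol RNA.

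The main test for CPM was limma 3.58.1 with a trend on log2(CPM + 1), genes with a mean CPM above 1. Beside it, edgeR 4.0.16 (quasi-likelihood, TMM, filterByExpr with 10 reads) was run on the recovered reads, and it gives the fold changes and scaled CPM printed; it called 100 genes. Location was the only term, 2 libraries against 2, threshold 0.05. DESeq2 1.42.0 was an alternative (R 4.3.3). All fits covered the whole table. The edgeR, limma and DESeq2 fits at their main settings, not the alternatives, were also run on simulated reads. Those reads were drawn from the same profile for all libraries apart from planted changes, so the uneven ribosomal RNA was not simulated. Over all genes the log2 fold change had a median of -0.35 (limma), 0.01 (edgeR) and -0.18 (edgeR, library size alone). Alternatives covered scaling, filters, pseudocounts, tools, a replicate block and leaving out each library. Exon lengths, positions and coding sequences are from GENCODE M21. Named were all 10 members, genes of 3 related lists, 5 genes most like Ppp2r2b and marker lists; within the related lists, genes below the threshold were named after their values were seen. Members and lists were chosen with earlier results of these data known. Some marker genes and a sequence comparison are not reported here.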

Additional observations from a re-analysis of the deposited data

How the results depend on the processing

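The count test had 12 alternatives, among them each library left out in turn. Ppp2r2b is not tested here. Of the 9 other PP2A subunits, 0 were called in the alternatives to the count test or to limma with no library left out. Each of these fits tested 5 to 9 of the 9 genes. The number of genes called in all did change. The count test called 100 genes, DESeq2 called 14, and 13 passed by the authors' deposited p-values. With any 1 library left out the count test called 41 to 142, and 41 without trailing replicate 2, 44 without trailing replicate 1, 78 without wavefront replicate 1 and 142 without wavefront replicate 2. Limma called 0 genes, against 3 with a pseudocount of 5, 5 with no filter, 36 with a mean CPM above 10, 9 with DESeq2 size factors, 52 with the replicate block, and 0 with any 1 library left out. The block moved the count test to 78. Same-numbered libraries share only a number in the labels, and over 5759 genes their deviations had a correlation of 0.0592.

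The direction of Ppp2r2b was the same in all 12 alternatives. That gives no support, since Ppp2r2b chose the family by being high at the wavefront in these libraries. Its log2 fold change was 2.11 in the authors' deposited table, and 3.49 to 4.55 with 1 library left out. Signs of the small fold changes of other subunits were not stable. Ppp2r1a was at -0.0557 with library size alone, -0.21 in limma, -0.0559 without trailing replicate 2 and -0.24 without wavefront replicate 1, in a range of -0.24 to 0.43 with 1 library left out. Ppp2r5c was at -0.0843 in limma and -0.34 without wavefront replicate 1 (range -0.34 to 0.74). Ppp2ca was at 0.00948 without trailing replicate 2 and 0.30 without wavefront replicate 1 (range -0.35 to 0.30). Ppp2r2a was at 0.00248 without trailing replicate 2 and 0.36 without wavefront replicate 2 (range -0.91 to 0.36). Ppp2r1b stayed above 0 in 12 of 12, with a smallest adjusted p of 0.355. With 1 library left out, the share difference, in percentage points, ran from -3.26 to 15.1 for Ppp2ca among catalytic reads (-3.26 without wavefront replicate 2), -11.1 to -4.59 for Ppp2r1a among scaffold reads, 0.869 to 6.02 for Ppp2r2a beside Ppp2r2d, 0.0419 to 2.99 for Ppp2r5c beside Ppp2r5e and 26.9 to 41.0 for Ppp2r2b among B55 reads. The causes were not tested. Depth limits Ppp2cb, Ppp2r2c, Ppp2r2d and Ppp2r5e, each under the count filter.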
